A study of Mus musculus with 10 samples.

Results

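The 10 genes described here encode the ligands, receptors and inflammasome proteins of the interleukin-1 (IL-1) system. They are *Il1a*, *Il1b*, *Il1rn*, *Il1r1*, *Il1r2*, *Il1rap*, *Il1rl1*, *Casp1*, *Nlrp3* and *Pycard*. They were chosen by symbol, with earlier results of these data known, and all 10 were found among the 770 gene probes of the series. RNA was read on the mouse NanoString PanCancer Immune panel, which counts single RNA molecules caught by barcoded probes, with 100 ng of RNA per tumor. The samples were 5 tumors of YUMMER1.7 cells grown in WT mice and 5 grown in mice lacking Siah2 (Siah2 KO, or Siah2-/-). YUMMER1.7 is an immunogenic mouse melanoma line, so both groups carried the same injected cells and the genotype was that of the host, in all of its cells. Per the study's methods, the hosts were male mice a few weeks old on a C57BL/6 background, and cells were injected under the skin. Tumors were taken 11 days after injection by the sample labels, and at day 10 by the study's figure legend and by the description of the series. That description also names other cells and other mice (Yumm1.5, Rnf5-/-) than the labels of all samples, which were followed here. Each tumor was a mixture of injected and host cells, so a change in the number of cells of a type and a change in RNA per cell cannot be told apart. The labels do not say whether tumors came from separate cages or litters, and p-values measure the spread between these tumors. The panel has 0 probes for Siah2, and the genotype could not be checked in the values.

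IL-1α and IL-1β are inflammatory cytokines that act through the receptor IL-1R1 and its co-receptor IL-1RAcP, the product of *Il1rap*. The pathway has built-in brakes. The receptor antagonist encoded by *Il1rn* occupies IL-1R1 without signalling, and the receptor encoded by *Il1r2* binds IL-1 but has no signalling part and acts as a decoy. *Il1rl1* encodes ST2, the receptor of the alarmin IL-33, which shares the co-receptor, and a soluble form of ST2 binds IL-33 away from cells. IL-1β is made as an inactive precursor and is cut by caspase-1 (*Casp1*), which is activated on the inflammasome, a complex of a sensor such as NLRP3 and the adaptor ASC (*Pycard*). In tumors, IL-1 comes largely from myeloid cells and can both feed inflammation and recruit suppressive cells.

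The promoters of the 3 ligand genes are shown. These 3 were among the 9 of the 10 genes that were higher in Siah2 KO tumors. RefSeq sequences (GRCm38.p6) were matched by symbol for all 10 genes, with 15 windows that reach from 250 bases before to 50 bases after a start site. The last 150 bases before the start site are printed 5′ to 3′ along the gene's strand, with matches to the searched motifs in capitals. They lie at chr2:129309973-129310122 on the minus strand for *Il1a*, at chr2:129371140-129371289 on the minus strand for *Il1b*, and at chr2:24345221-24345370 on the plus strand for *Il1rn*, for which 1 of 3 windows is shown.
Il1a: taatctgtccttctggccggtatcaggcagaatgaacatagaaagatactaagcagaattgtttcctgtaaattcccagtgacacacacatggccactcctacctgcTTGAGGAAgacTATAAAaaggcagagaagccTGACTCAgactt
Il1b: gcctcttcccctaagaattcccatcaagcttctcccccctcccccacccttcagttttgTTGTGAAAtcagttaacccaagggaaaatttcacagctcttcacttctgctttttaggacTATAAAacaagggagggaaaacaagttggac
Il1rn: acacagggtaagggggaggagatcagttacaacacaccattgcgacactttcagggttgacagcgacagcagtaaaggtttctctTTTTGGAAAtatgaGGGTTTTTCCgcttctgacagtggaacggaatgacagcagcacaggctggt

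Motifs were searched on both strands, and overlapping matches were all kept. The TATA box, searched as TATAAA, started 32 bases before the start site of *Il1a* and 31 bases before that of *Il1b*. It was found in 13.6% of the 32851 promoter windows of the table and in 3 of the 15 windows here, of 3 different genes. The match of the third gene, *Il1rn*, lay on the other strand at +15, after the start site and outside the printed bases. The AP-1 motif, searched as TGANTCA, lay at −12 of *Il1a* and occurred in 7.81% of all windows. The C/EBP motif, searched as TTNCNNAA, has 2 overlapping matches at −65 and −64 in the printed *Il1rn* window. The NF-κB motif, searched as 3 G and 2 C with any 5 bases between them, has a match there at −51. An interferon-stimulated response element, searched as a pair of GAAA with any 2 bases between them, was found for *Il1rap* alone of the 10 genes and in 3.44% of all windows. Some of these motifs were common, with the NF-κB letters in 50.8% and the C/EBP letters in 40.7% of all windows, and the matches are a description of letters and not of bound sites.

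Groups were compared, Siah2 KO minus WT, on log2(value + 1) of the authors' normalized counts with limma, and p-values were adjusted over all 770 probes by the Benjamini-Hochberg method. All 10 genes passed an adjusted p of 0.05, where 41% of all probes did, and all 10 passed an unadjusted p of 0.05, where 49.9% did. Of these genes, 9 were higher in Siah2 KO tumors, against 31.3% of all probes, and 1, *Il1r1*, was lower, against 9.74% of all probes. The median log2 fold change of the 10 genes was 1.15, and that of all 770 probes was 0.24. For 9 genes the groups did not overlap, 8 of them higher (24.5% of all probes) and 1 lower (7.01% of all probes). *Il1a* was the exception. The authors' scale sets each tumor to its reference genes. With every tumor scaled to the same median of its endogenous genes, the median of all probes moved by -0.25, and 9 of the 10 genes passed, 8 higher against 21.2% of all probes and 1 lower against 19.7%. The gene lost was *Il1rap*. With the reference gene factor removed and the tumors scaled to the positive control probes, 4 of the 10 passed, where 12.3% of all probes did. All 4 were higher (*Il1b*, *Il1rn*, *Il1r2* and *Il1rl1*), a direction called for 7.79% of all probes, and 0 were lower, against 4.55%.

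**Figure D1:**
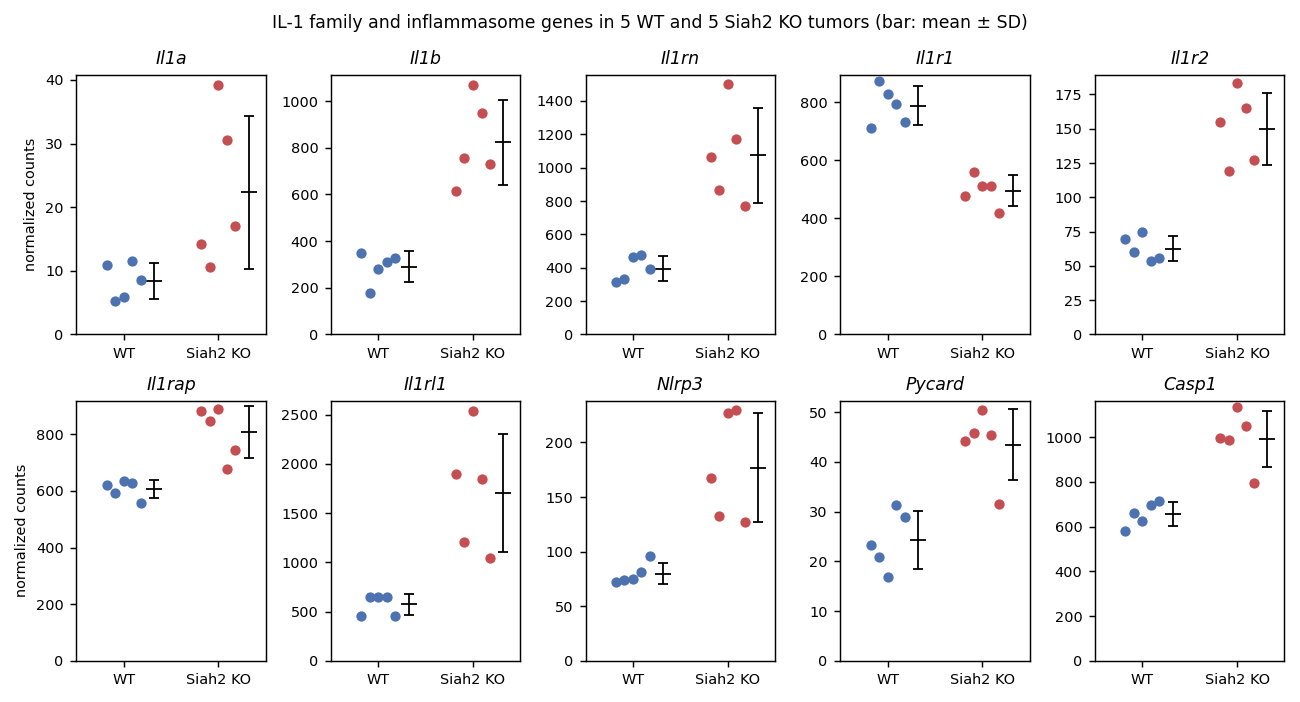
Normalized counts (vertical axes, from 0, each gene on its own scale) of the 10 genes in 5 WT (blue) and 5 Siah2 KO (red) tumors. Each point is a tumor, in the order of the replicate numbers, and the black bar is the mean with SD. The red points lie above all blue points in 8 panels, below them for *Il1r1*, and overlap them for *Il1a*.

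*Il1b* and its antagonist rose together. *Il1b*, the precursor of IL-1β, had 349.9, 179.6, 281, 313 and 329 normalized counts in WT2, WT3, WT4, WT5 and WT6. It had 613, 758, 1069.6, 949.7 and 731 in KO1, KO2, KO3, KO5 and KO6. Every Siah2 KO tumor exceeded the highest WT tumor, and the lowest WT tumor, WT3, stood well under the others. The mean was 824 ± 183 (SD, n = 5) against 290.4 ± 66.8 (SD, n = 5), a log2 fold change of 1.51 (standard error, SE, 0.21; limma adjusted p = 0.00057). The study names *Il1b* for these tumors, so its direction was known when it was chosen.

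*Il1rn*, which encodes the receptor antagonist, had 312, 334, 463, 475 and 394 normalized counts in WT2, WT3, WT4, WT5 and WT6. In KO1, KO2, KO3, KO5 and KO6 it had 1065, 864, 1499, 1169.9 and 770.2. The groups lay far apart, with KO6 lowest and KO3 highest of the Siah2 KO tumors. Its log2 fold change of 1.42 (SE 0.20, adjusted p = 0.00057) was close to that of *Il1b*. Within a tumor, the log2 ratio of *Il1b* over *Il1rn* averaged −0.46 ± 0.42 for WT and −0.37 ± 0.28 for Siah2 KO tumors (SD, n = 5). The ranges overlapped, from −0.89 to 0.17 and from −0.79 to −0.075, and the difference of 0.092 was within the spread (two-sided exact permutation p = 0.71, the same after adjustment over 3 ratios). The level of such a ratio depends on the probes, and only its difference between groups can be read.

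*Il1a*, the gene of IL-1α, was measured near the background of the assay. It had 10.9, 5.23, 5.85, 11.6 and 8.57 normalized counts in WT2, WT3, WT4, WT5 and WT6, and 14.2, 10.5, 39.1, 30.6 and 17.05 in KO1, KO2, KO3, KO5 and KO6. KO2 fell inside the WT range, while KO3 and KO5 were the highest. The log2 fold change was 1.21 (SE 0.36, adjusted p = 0.021; exact permutation p = 0.024). *Il1a* was above the highest negative control of its own tumor in all 10 tumors, but those controls reached 15.8 normalized counts in a Siah2 KO tumor and 8.92 in a WT tumor when scaled like the genes. Raising values under 20 to 20 left a log2 fold change of 0.30 (adjusted p = 0.25). Without WT3 or without WT4 its adjusted p was 0.053 or 0.051. The log2 ratio of *Il1a* over *Il1b* averaged −4.97 ± 0.27 for WT and −5.27 ± 0.50 for Siah2 KO tumors (SD, n = 5), which differ by −0.30 (two-sided exact permutation, adjusted p = 0.40). With low values raised to 20 it was −1.21 (exact permutation, adjusted p = 0.012). That floor put all WT and most Siah2 KO values of *Il1a* at 20, so this result largely repeats the rise of *Il1b*.

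The receptors of IL-1 moved in opposite directions. *Il1r1*, the signalling receptor, had 711, 872, 827, 794 and 733 normalized counts in WT2, WT3, WT4, WT5 and WT6, and 476, 558, 513, 512 and 418 in KO1, KO2, KO3, KO5 and KO6. All Siah2 KO tumors were below all WT tumors. The log2 fold change was −0.67 (SE 0.10, adjusted p = 0.00085). Under median scaling it was −0.94 (adjusted p = 0.00012). Under positive control scaling it was −0.83, at an adjusted p of 0.080. These scalings moved the median of all probes by −0.25 and −0.16, so neither could have turned the direction of a lower gene. Genes of fibroblasts, which carry this receptor, were measured beside it. Of 7 fibroblast genes in the table, 6 were lower (9.74% of all probes) and 1, *Thy1*, was higher (31.3% of all probes). The median log2 fold change of the 7 was −0.74. Their summed level was 18359 to 23132 normalized counts in Siah2 KO tumors and 30019.8 to 39687 in WT tumors, and 0 of them were under 20 in every tumor. Their part in the level of *Il1r1* was not tested.

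*Il1r2*, the decoy receptor, had 69.3, 59.8, 74.7, 53.8 and 55.8 normalized counts in WT2, WT3, WT4, WT5 and WT6. It had 155, 119, 183, 165 and 127 in KO1, KO2, KO3, KO5 and KO6. The lowest Siah2 KO tumor, KO2, was above every WT tumor, and the log2 fold change of 1.24 (SE 0.14) had the smallest adjusted p of the 10 genes, 0.00024. The log2 ratio of *Il1r2* over *Il1r1* in the same tumor ranged from −3.86 to −3.34 for WT and from −2.22 to −1.48 for Siah2 KO tumors, with no overlap. The difference of 1.91 (exact permutation p = 0.0079, adjusted p = 0.024) hardly depends on the scaling of the tumors, which cancels in a ratio except for the pseudocount. Of the 3 ratios tested, it was the one that passed. Its p was already fixed by the single genes. The groups did not overlap for *Il1r2* or for *Il1r1*, and these genes moved in opposite directions. Their ratio therefore had to separate the groups and give the smallest p possible, 0.0079. It adds the size of the difference and is not a further test. *Il1r2* is known from neutrophils among other myeloid cells. Of 12 neutrophil genes in the table, 2 were higher (*Csf3r* and *Fpr2*), 1 was lower (*Mmp9*) and 9 did not pass. Of all probes, 31.3% were higher and 9.74% lower. The summed level of the 12 genes was 12126 to 25585 normalized counts in Siah2 KO and 12037 to 17281 in WT tumors. Most of that sum was *Lyz2*, which macrophages also express, and without it the sum was 751 to 1998 in Siah2 KO and 617 to 915 in WT tumors. The granule genes *Mpo*, *Elane*, *Camp* and *Ltf* and the receptor gene *Cxcr1* were under 20 normalized counts in every tumor. Of 5 monocyte genes in the table, 3 were higher (31.3% of all probes) and 0 were lower (9.74% of all probes). The part of neutrophils or monocytes in *Il1r2* was not tested.

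**Figure D2:**
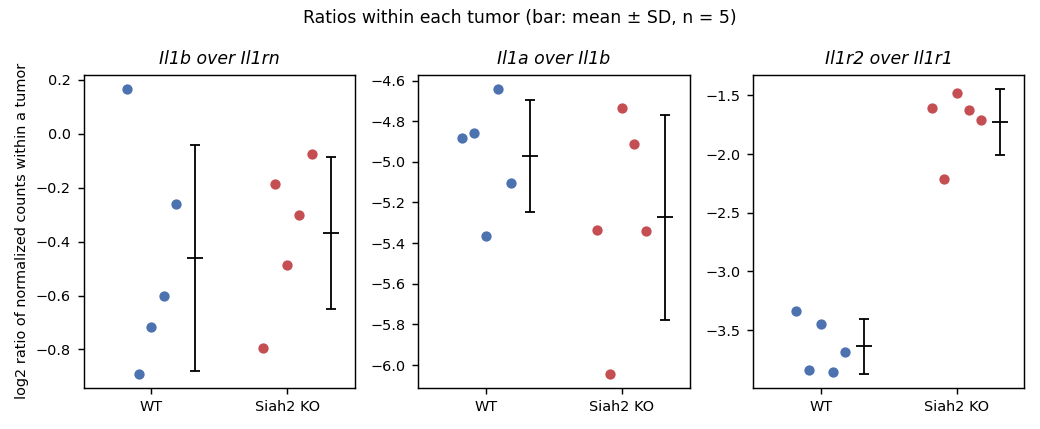
Log2 ratios of normalized counts within each tumor (vertical axes) for 3 pairs of genes in 5 WT (blue) and 5 Siah2 KO (red) tumors, with mean and SD as black bars. The groups overlap for *Il1b* over *Il1rn* and for *Il1a* over *Il1b*, and are apart by 1.91 for *Il1r2* over *Il1r1*.

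*Il1rap*, the co-receptor shared by IL-1 and IL-33, had the smallest change in size. It had 620.03, 594, 636, 628 and 557 normalized counts in WT2, WT3, WT4, WT5 and WT6, and 884, 846, 888, 678 and 745 in KO1, KO2, KO3, KO5 and KO6. The groups did not overlap, but KO5 was near the WT tumors. Its log2 fold change of 0.41 (SE 0.098, adjusted p = 0.0079) depended on the scaling. It was 0.14 with median scaling (95% confidence interval −0.15 to 0.43, adjusted p = 0.43) and −0.011 with quantile normalization (adjusted p = 0.95).

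*Il1rl1*, the IL-33 receptor gene, was higher in every Siah2 KO tumor. It had 458, 651, 649, 649 and 458 normalized counts in WT2, WT3, WT4, WT5 and WT6. In KO1, KO2, KO3, KO5 and KO6 it had 1896, 1208, 2537, 1842 and 1048. The lowest Siah2 KO tumor was well above the highest WT tumor, and the Siah2 KO tumors differed among themselves more than the WT tumors. The mean was 1706 ± 597 (SD, n = 5) against 573 ± 105 (SD, n = 5), a log2 fold change of 1.52 (SE 0.24, adjusted p = 0.0011). The probe sequence is not used here, and the membrane and soluble forms of ST2 are not distinguished. Of the cells known to carry ST2, only mast cells, basophils and Tregs were followed by their markers. Of 5 mast cell and basophil genes 0 were higher (31.3% of all probes) and 1, *Ms4a2*, was lower (9.74% of all probes). Their summed level was 333 to 474 normalized counts in Siah2 KO and 385 to 780.4 in WT tumors. Within it *Tpsab1* had 15.1 to 21.7 in Siah2 KO and 7.61 to 285 in WT tumors. Of 9 Treg genes, 1 was higher (*Icos*) and 2 were lower (*Foxp3* and *Ccr4*), beside 31.3% and 9.74% of all probes. Their summed level was 779 to 1417 normalized counts in Siah2 KO and 695 to 1181 in WT tumors. *Il2ra* and *Icos* had the highest means in that sum, 330 and 324 in Siah2 KO and 234 and 188 in WT tumors. *Foxp3* had a mean of 29.5 in Siah2 KO and 56.7 in WT tumors. The part of these cells in *Il1rl1* was not tested, and *Il33* was not among the probes used here.

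The 3 inflammasome genes were higher as well, by 0.59 to 1.10 on the log2 scale. *Nlrp3*, the sensor, had 72.2, 74.4, 74.7, 81.5 and 96.3 normalized counts in WT2, WT3, WT4, WT5 and WT6, and 167, 132, 227, 230.1 and 127 in KO1, KO2, KO3, KO5 and KO6. KO3 and KO5 stood above the other Siah2 KO tumors, which were themselves above all WT tumors. Its log2 fold change was 1.10 (SE 0.19, adjusted p = 0.0014).

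*Casp1*, the protease, was at 579.8, 661, 626, 697 and 714 normalized counts in WT2, WT3, WT4, WT5 and WT6. It was at 997, 987, 1134, 1050.2 and 795 in KO1, KO2, KO3, KO5 and KO6. The gap between the groups was set by KO6, and the log2 fold change was 0.59 (SE 0.11, adjusted p = 0.0022). Under positive control scaling it was 0.43, at an adjusted p of 0.45.

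*Pycard*, the adaptor, had 23.3, 20.8, 16.9, 31.4 and 28.8 normalized counts in WT2, WT3, WT4, WT5 and WT6, and 44.2, 45.7, 50.5, 45.4 and 31.5 in KO1, KO2, KO3, KO5 and KO6. The groups were apart by less than the 1.03 normalized counts that a single molecule was worth in KO6. The log2 fold change was 0.83 (SE 0.18, adjusted p = 0.0049), and 0.67 at an adjusted p of 0.20 under positive control scaling. These values are RNA levels and do not show whether an inflammasome was active or IL-1β was cut.

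The highest Siah2 KO tumor was mostly the same one, while the lowest varied. Among the 9 genes that were higher, KO3 was the highest Siah2 KO tumor for 8 and KO5 for 1, while KO6 was the lowest for 5, KO2 for 2 and KO1 and KO5 for 1 each. The reference gene factor of KO3, 1.26, was in the middle of the 5 Siah2 KO tumors, whose factors were between 1.03 and 1.60, and KO6 had the smallest. WT tumors had factors of 0.92 to 1.32, with a median of 0.96 against 1.26 for Siah2 KO tumors. The summed signal before scaling had a median of 559053 in WT and 558843 in Siah2 KO tumors. Without KO3 all 10 genes still passed, with log2 fold changes of 1.41 for *Il1b*, 1.29 for *Il1rn* and 1.36 for *Il1rl1*.

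Leukocyte genes were also higher in Siah2 KO tumors. Of the 7 that were measured, 6 rose, where 31.3% of all probes did. Their summed level was 6627 to 9863 normalized counts in Siah2 KO and 4333 to 5307 in WT tumors, and 0 were under 20 in every tumor. When the median log2 value of these genes was subtracted in each tumor, which lowers all log2 fold changes by 0.85, 4 of the 10 genes passed, where 59.4% of all probes did. On that scale *Il1b* was at 0.66 (adjusted p = 0.016), *Il1rl1* at 0.67 (adjusted p = 0.040) and *Il1rn* at 0.57 (adjusted p = 0.024), 3 genes where 5.32% of all probes were called higher. *Il1r1* was at −1.52 (adjusted p = 0.00020), in a direction in which 54% of all probes were called. The other 6 did not pass. Their 95% confidence intervals were −0.10 to 0.87 for *Il1r2*, −0.29 to 1.01 for *Il1a*, −0.11 to 0.60 for *Nlrp3*, −0.34 to 0.30 for *Pycard*, −0.59 to 0.068 for *Casp1* and −0.90 to 0.0064 for *Il1rap*. With the mean of the list in place of its median, which lowers them by 0.71, *Il1r2* passed at 0.53 and *Nlrp3* at 0.39, and 6 genes passed in all, where 56% of all probes did, 5 of them higher (7.27% of all probes) and *Il1r1* lower (48.7%). With the median, 2 genes passed without WT2 or without KO3, where 59.4% of all probes passed with all tumors.

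**Figure D3:**
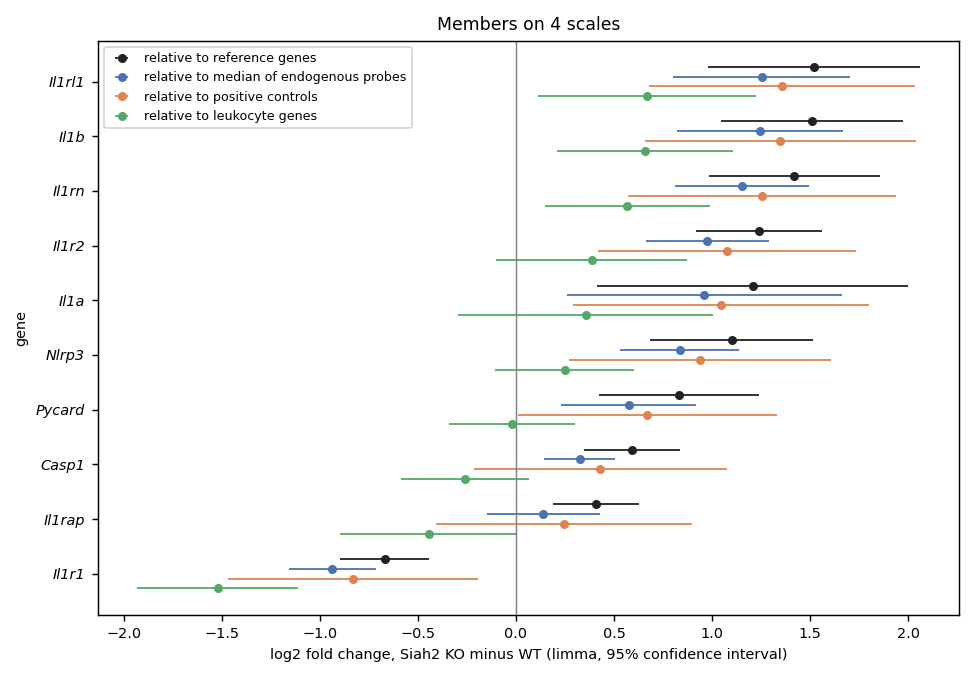
Log2 fold changes, Siah2 KO minus WT (horizontal axis), of the 10 genes with 95% confidence intervals from limma, on the scale of the reference genes (black), the median of the endogenous probes (blue), the positive control probes (orange) and the leukocyte genes of the same tumor (green). *Il1b*, *Il1rn* and *Il1rl1* stay above 0 and *Il1r1* stays below 0 on all 4 scales. The scales other than the reference genes lower the median of all probes, so they could only move the estimate of *Il1r1* further below 0. The intervals of *Il1rap* reach 0 on 3 of them. Intervals are not adjusted for the number of probes.

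Relative to 14 macrophage genes, 7 of the 10 passed (31.3% of all probes), 6 higher (14.7% of all probes) and *Il1r1* lower (16.6% of all probes). Macrophage genes themselves went both ways. On the reference gene scale 5 were higher (31.3% of all probes), among them *Cd68* and *Msr1*. The 4 that were lower (9.74% of all probes) were *Cd163*, *Mrc1*, *Lyve1* and *Cx3cr1*. The summed level of the 14 genes was 20519 to 30133 normalized counts in Siah2 KO and 17778 to 21661 in WT tumors. The scale therefore depends on how the list is summed up, as its median was higher by 0.36 in Siah2 KO tumors and its mean lower by 0.22, and with the mean all 10 genes passed, where 58.3% of all probes did, 9 of them higher (52.7% of all probes) and *Il1r1* lower (5.58%). Relative to the 12 neutrophil genes, 7 of the 10 passed, where 22.9% of all probes did. All 7 were higher, against 20.9% of all probes, and 0 were lower, against 1.95%. On this scale, which raises log2 fold changes by 0.26, *Il1r1* was at −0.41 (adjusted p = 0.46). The neutrophil median lay among genes near the floor, and the SE of every gene on this scale was 0.40. With the mean of the list, which was higher by 0.45 in Siah2 KO tumors, 7 genes again passed, where 24.2% of all probes did, but 6 of them were higher (8.18% of all probes) and *Il1r1* was lower, at −1.12 (16% of all probes, adjusted p = 0.0013). *Pycard* was then at 0.39 (adjusted p = 0.18).

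*Il1r2*, *Il1r1*, *Il1rl1* and other receptors of the family lie in a row on chromosome 1. In the RefSeq order of protein-coding genes (GRCm38.p6) the row is *Il1r2*, *Il1r1*, *Il1rl2*, *Il1rl1*, *Il18r1* and *Il18rap*, with 0 others between them. Their log2 fold changes in this order were 1.24, −0.67, −0.51, 1.52, 0.99 and 0.26, of which the last did not pass. Neighbours differed in direction, with a pair of lower genes between higher ones. *Il1a* and *Il1b*, next to each other on chromosome 2, were both higher, as was *Il1rn* elsewhere on that chromosome.

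Of 14 other genes listed for the IL-1 superfamily, 5 had a probe here, and 1 rose, 1 fell and 3 did not pass. Of all probes, 31.3% rose and 9.74% fell. *Il18r1*, a subunit of the IL-18 receptor, rose by 0.99 on the log2 scale (adjusted p = 0.0048), and its mean went from 68.8 ± 14.3 to 140.5 ± 38.9 normalized counts (SD, n = 5). *Il1rl2*, the IL-36 receptor, was lower, at −0.51 on the log2 scale (adjusted p = 0.021), with a mean of 76.3 ± 17.6 against 107 ± 10.6 normalized counts (SD, n = 5). *Il18*, the other cytokine that caspase-1 cuts, was at 0.26 (adjusted p = 0.13) and *Il18rap* at 0.26 (adjusted p = 0.11). *Il1rapl2* was near the floor, at 1 to 5.72 normalized counts.

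Of 9 other sensor and inflammasome genes, 5 rose and 1 fell, beside 31.3% and 9.74% of all probes, with a median log2 fold change of 0.43 against 0.24 for all probes. *Mefv*, the gene of the sensor pyrin, rose by 1.06 on the log2 scale (adjusted p = 0.0014), the peptidoglycan sensors *Nod2* and *Nod1* by 1.03 and 0.66 (adjusted p = 0.015 and 0.0074), and *Nlrc5*, a regulator of MHC class I genes, by 0.82 (adjusted p = 0.0017). *Casp8*, a protease of cell death pathways, rose by 0.43 (adjusted p = 0.0035). *Hmgb1*, a nuclear protein that acts as an alarmin when released, was lower by −0.26 (adjusted p = 0.031).

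Of 27 genes that signal downstream of the receptor, 5 rose, 1 fell and 21 did not pass, where 31.3% of all probes rose and 9.74% fell, with a median log2 fold change of 0.13, below the 0.24 of all probes. The adaptor *Myd88* was at 0.15 (adjusted p = 0.21). *Fos*, an immediate early transcription factor, rose by 1.78 on the log2 scale (adjusted p = 0.00057), and its mean was 109.7 ± 32.5 in WT and 378 ± 117 normalized counts in Siah2 KO tumors (SD, n = 5). *Irak2*, a kinase that sustains IL-1 receptor signals, rose by 0.82 (adjusted p = 0.00089), and *Ikbkg* and *Chuk*, subunits of the kinase that frees NF-κB, by 0.35 and 0.25 (adjusted p = 0.042 and 0.038). *Jun*, a partner of *Fos* in AP-1, rose by 0.24 (adjusted p = 0.041). *Tab1*, which binds the kinase TAK1, was lower by −0.27 (adjusted p = 0.041). The direction of such small changes is open to the scaling, which moved all probes by -0.25.

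Of 24 genes known to respond to IL-1, 10 rose, 2 fell and 12 did not pass, beside 31.3% and 9.74% of all probes that rose and fell, with a median log2 fold change of 0.61 against 0.24 for all probes. *Nos2*, the inducible nitric oxide synthase, and *Ptgs2*, the inducible cyclooxygenase, had log2 fold changes of 4.09 and 2.28, and the monocyte chemokines *Ccl2* and *Ccl7* of 1.53 and 1.43, with adjusted p of 0.00051 or less. *Lif*, a cytokine of the IL-6 family, and *Sele*, an endothelial adhesion molecule, rose by 0.82 and 0.75 (adjusted p = 0.0011 and 0.0022). *Mmp9*, a matrix protease, and *Vcam1*, an adhesion molecule, were lower, at −1.49 and −0.39 (adjusted p = 0.0085 and 0.043). *Il6*, named after its values were seen as the best known of these genes, was at 0.26 (adjusted p = 0.72), with 16.4 and 12.5 normalized counts on average. These genes answer to many other signals, and 6 of the 24 were under 20 normalized counts in every tumor.

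**Figure D4:**
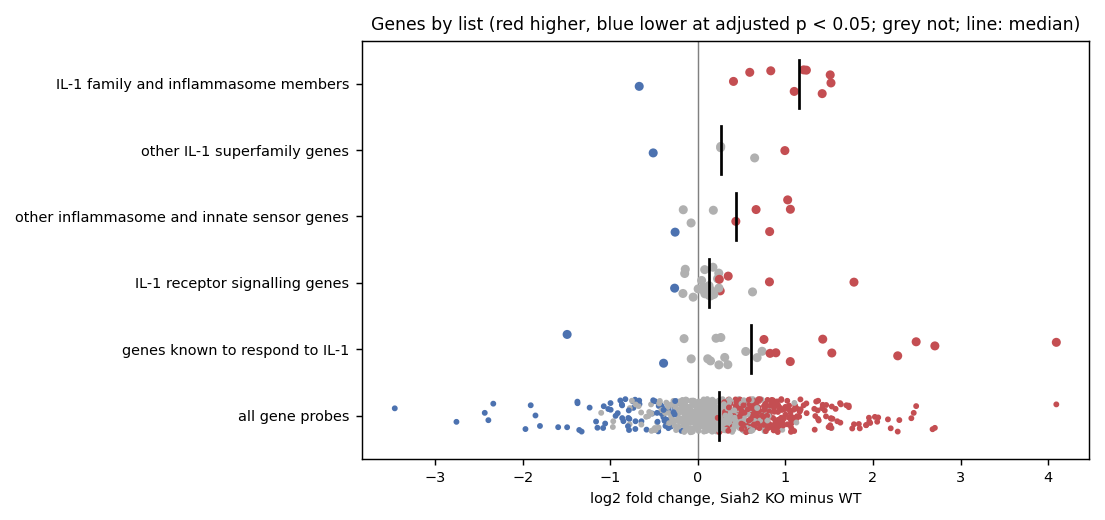
Log2 fold changes, Siah2 KO minus WT (horizontal axis), of the genes of 5 lists and of all 770 gene probes (rows), red where higher and blue where lower at an adjusted p under 0.05, and grey otherwise. The black line is the median, 1.15 for the 10 IL-1 and inflammasome genes, 0.13 for the signalling genes, 0.61 for the genes known to respond to IL-1 and 0.24 for all probes.

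The genes most like a member over the 10 tumors were sought among 601 other probes with a mean of at least 20, by the root mean square difference of log2 values centred on each gene's mean. *Il1b* was most like *C2* (0.26), *Slc11a1* (0.26) and *Tnf* (0.28). *Il1rn* was closest to *Klrc1*, *Lgals3* and *Ccl2* (0.20, 0.20 and 0.21), and *Il1rl1* to *Il1rn* itself (0.21). *Nlrp3* followed *H2-T23*, *Serping1* and *Csf3r* (0.11, 0.12 and 0.16). *Casp1* followed *H2-M3*, *Il13ra1* and *Irf8* (0.076, 0.080 and 0.088), and *Il1r2* followed *Lgals3*, *Abcb1a* and *Serping1* (0.21, 0.22 and 0.23). The measure rests on both the group difference and the order of tumors within a group.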

How the data were processed

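The authors deposited the NanoString signal of 784 probes as normalized counts. Per the methods, nSolver scaled each tumor to 20 reference genes. The low values also show a background subtraction and a floor, which no source used here names. The floor was 1 to 1.32 in WT and 1.03 to 1.6 in Siah2 KO tumors. Values above the floor and under 150 lay within 0.1 of an equal step in 100% of cases, with an offset, so the molecules before background subtraction stay unknown and no count test was used. Before scaling, the signal summed over 770 gene probes was 382886 to 581617 per tumor.

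Groups came from the sample titles. log2(value + 1) of the authors' signal was compared with limma 3.58.1 in R 4.3.3, two-sided, without covariates, with Benjamini-Hochberg adjustment over 770 probes. Exact permutation tests used all 252 divisions (smallest p 0.0079). Tests were tried on simulated data. Members and lists were chosen with earlier results of these data known. From the pathway lists, the 4 largest and 4 smallest changes at an adjusted p under 0.05 and a mean of at least 20 are named. Alternatives were another scaling, pseudocount, floor, filter, test or probe set, a replicate block, and leaving out each tumor. The 12 marker lists had the following other medians of log2 fold change: monocytes 0.75, dendritic cells −0.11, T cells 0.70, endothelium −0.24, and epithelium and melanocytes, with 2 genes each, −0.064 and −1.28. Plots used matplotlib 3.10.9.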

Additional observations from a re-analysis of the deposited data

Results flagged for a closer look

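In 5 of 76 groups of 5 tumors, 1 tumor stood apart from the other 4, where chance gives about 1 in 20. *Ptgs2* had 1806 normalized counts in Siah2 KO replicate 3 and 677 to 958 in the other Siah2 KO tumors. *Ccl2* had 23264 in Siah2 KO replicate 3 and 13215 to 15949 in the others. *Fos* had 583 in Siah2 KO replicate 5 and 300.4 to 359.9 in the others. *Nlrc5* had 332 in WT replicate 2 and 491 to 536 in the other WT tumors. *Il1rapl2* had 4.02 in WT replicate 4 and 1 to 1.32 in the others, all near the floor. None of the 10 IL-1 and inflammasome genes and none of the 3 ratios had such a tumor.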

How the results depend on the processing

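*Il1b*, *Il1rn*, *Il1r2* and *Il1rl1* kept their direction and an adjusted p under 0.05 in all 22 alternatives. Positive control scaling called 95 of 770 probes in place of 316, 4 of the 10 genes, and 6 of them by the exact permutation test in place of 10, and the cause was not tested. The exact test was run on the 10 genes only, so its counts have no share of all probes beside them. On the authors' scale, groups that do not overlap, which give its smallest p, were found for 31.6% of all probes. *Il1rap* turned to −0.011 with quantile normalization. With each tumor left out in turn, 268 to 334 probes and 9 to 10 of the 10 genes passed (*Il1a* was lost without WT3 or WT4), and 10 to 10 by the exact test. Relative to leukocyte genes 2 to 4 passed, to macrophage genes 6 to 8 and to neutrophil genes 6 to 8. With no tumor left out, 59.4%, 31.3% and 22.9% of all probes passed on these scales. The ratio of *Il1r2* over *Il1r1* was 1.85 to 2.03, that of *Il1a* over *Il1b* −0.44 to −0.11 and that of *Il1b* over *Il1rn* −0.015 to 0.25, negative without WT3. *Il1a* over *Il1b* was −0.73 with a pseudocount of 10 and −1.21 with a floor of 20, both at an adjusted p of 0.012. Both settings shrink the rise of *Il1a*, whose values are low, while that of *Il1b* stays at about the same size. Same-numbered tumors correlated at 0.052, 0.14, 0.18 and 0.49 in their deviations, not all over 0.1, and 6 of 8 tumors correlated best with their own number. With the replicate number as a block, in the 8 tumors that share a number, 235 probes and 7 of the 10 genes passed, without *Il1a*, *Il1rap* and *Pycard*. In those tumors without a block, 232 probes and 9 of the 10 genes passed. Over the 4 pairs *Il1r2* over *Il1r1* differed by 1.93 (adjusted p = 0.38), where 4 pairs cannot reach 0.05. Precision is limited by 5 tumors a group and, for *Il1a*, by signal near the negative controls.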
